A study of Rattus norvegicus with 9 samples.

Results

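The oxidative phosphorylation machinery of the liver was followed here through its nuclear-encoded genes, which comprised 99 of the 32883 genes counted in rat liver RNA. Members were the protein-coding genes whose symbols begin with Nduf, Uqcr, Atp5, Cox4, Cox5, Cox6, Cox7 or Cox8, together with Sdha, Sdhb, Sdhc, Sdhd and Cycs. The rule reads symbols and not levels. By their symbols 37 belonged to complex I, 4 to complex II, 9 to complex III, 21 to complex IV and 16 to the ATP synthase, 1 was cytochrome c, and 11 were assembly or regulatory factors that the same prefixes bring in. These were Ndufaf1 to Ndufaf8, Cox7a2l, Atp5if1 and Atp5s.

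Livers of 9 male Sprague-Dawley rats gave 1 library each. 3 rats were normal controls, 3 belonged to the DEN model group and 3 to the PZH administration group. Normal control rats ate a normal diet and received no carcinogen. Rats of both other groups had weekly intraperitoneal injections of the liver carcinogen diethylnitrosamine (DEN) at 0.01% over 16 weeks, and the PZH administration rats additionally received Pien-Tze-Huang (PZH), a traditional Chinese formula. The treatment tag in the deposited labels reads PZH for the rats whose names begin with M as well as for those beginning with G. The groups therefore follow the letter of each rat's name (N, M or G) and the study's methods, and neither the PZH dose nor the week of collection of the sequenced rats was given in the sources used here. Liver tissue was sequenced, and whether tumour, surrounding tissue or both were taken was not given in the sources used here. Fewer cells of a type cannot be told apart from less RNA per cell in any value below.

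The respiratory chain passes electrons from NADH through complex I, or from succinate through complex II, to ubiquinone, complex III, cytochrome c and finally complex IV, where oxygen is reduced. Complexes I, III and IV pump protons across the inner mitochondrial membrane, and the ATP synthase uses the return flow to make ATP. Most subunits are encoded in the nucleus and imported, whereas 13 are encoded in mitochondrial DNA. Hepatocytes are rich in mitochondria because gluconeogenesis, urea synthesis and fatty acid oxidation depend on them.

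Total counts ranged from 14922973 to 27161496 per rat, rat G27 being the deepest. Hepatocyte markers such as albumin were abundant in every group, as the liver label implies. Their summed level was 170061 to 181050 scaled counts (CPM) in normal control, 36135 to 83402 in DEN model and 143373 to 177106 in PZH administration rats, while stellate cell and myofibroblast markers summed to 191 to 301, 1002 to 3115 and 585 to 705 CPM and ductular markers to 13.04 to 20.8, 209 to 749 and 76.1 to 90.0 CPM. Such sums rest mostly on abundant genes such as albumin. In the DEN model against normal control rats, 5 of 10 hepatocyte markers were called lower in the edgeR test described below. Called higher were 6 of 7 stellate and 6 of 6 ductular markers, where 20.5% of all genes were lower and 25.3% higher. Macrophage and leukocyte markers were mixed (3 higher and 1 lower of 7), as were endothelial markers (1 higher and 2 lower of 4). CPM is a gene's count over the library total, rescaled by TMM factors, which set the typical gene level between rats. These factors were 0.731 to 0.799 in normal control, 1.21 to 1.58 in DEN model and 0.864 to 0.942 in PZH administration rats, and the 10 most abundant genes took 20.4 to 22.1%, 13.9 to 18.3% and 22.4 to 22.6% of the reads in the same order. Because these factors differ so much between groups, each comparison was also made on library totals, that is, on each gene's share of all reads.

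3 libraries stood apart in mitochondrial reads. The 13 mitochondrially encoded subunits took 4.89% of the reads in rat N1, 5.89% in N12 and 7.63% in G27, against 9.82 to 13.2% in the other 6 rats. Their reads outnumbered those of the nuclear members 6.92-fold in N1, 7.90-fold in N12 and 10.3-fold in G27, and 13.6-fold to 18.3-fold in the other 6. The same 3 libraries held more reads of several short nuclear subunits than the rest of their groups. Cox5b, a subunit of complex IV, had 925 and 961 counts in N1 and N12 but 406 in N3, and 2080 counts in G27 but 321 in G28 and 236 in G42. Depth accounts for a part of the second contrast, since G27 had 27161496 counts in all, against 15471892 in G28 and 14922973 in G42. The counts of called members, and those single members that changed call, are also given below without these libraries. Counts per complex, isoform ratios and the other mitochondrial lists are given with them only.

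Respiratory chain genes were short and abundant. Transcript lengths, recovered from the counts and FPKM, ranged from 177 to 9764 bases with a median of 728.5 over 96 members, and 60 members were under 1000 bases, whereas over 17279 genes with at least 10 counts the median was 2305 bases and 15.9% were under 1000. On the FPKM scale, which corrects for length, the median member had a mean level of 54.7 over the 9 rats, and 84.4% of the 96 members with reads were above 10 FPKM, against a median of 3.97 FPKM and 29.2% above 10 among all 17279 genes. The highest mean FPKM belonged to Atp5f1b, the catalytic beta subunit of the ATP synthase (665), then to its alpha subunit Atp5f1a (342), to Cox4i1 of complex IV (271), to Atp5mc3, which encodes the membrane c subunit (250), and to Cox7c of complex IV (237). The median mean FPKM was 119 over the 16 ATP synthase genes, 101 over the 4 genes of complex II, 77.9 over the 18 complex IV genes with reads, 61.0 over complex III, 52.9 over complex I and 8.03 over the assembly and regulatory factors. Muscle and other tissue-restricted isoforms of complex IV lay at the low end. Cox6c-ps1, Cox7b2 and Cox8c had no read in any rat, and no rat held more than 6 counts of Cox6a2, 5 of Cox7a1 or 2 of Cox8b, where 3 counts correspond to 0.125 to 0.252 CPM depending on the rat.

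The annotation limits 5 members. The chromosome 6 copy of Ndufa10l1 (chr6:62796456-62798384), the chromosome 13 copy of Ndufv3 (chr13:51297295-51297621), the chromosome 1 copy of Uqcrb (chr1:94718402-94718876), the chromosome 2 copy of Cox6b1 (chr2:211337271-211337531) and Cycs itself (chr18:62476383-62476700) have a locus span equal to the transcript length, so the model holds no intron. The first 4 share their symbol with another listed locus, and reads may be split between copies, so their values are uncertain. Cycs has no second locus among the members. Whether this intronless model is the expressed cytochrome c gene cannot be told here, so its values are uncertain as well. Positions were copied from the deposited table, and its build was not given in the sources used here.

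Promoter sequence was examined because nuclear respiratory genes are a textbook set of targets of NRF1, the GABP factor of the ETS family, ERR receptors and YY1. RefSeq windows of 300 bases, from 250 before to 50 after the start site on build GRCr8, were found by symbol for 83 member rows with 81 distinct promoters, and both strands were searched. The palindromic NRF1 motif, the capitals of the Atp5po stretch below, was in 6 of the 81 windows (7.41%) against 0.852% of all 33469 windows, and the YY1 motif, the capitals of the Ndufa6 stretch, in 8 (9.88%) against 0.675%. The ETS motif CCGGAAGTG was in 3 (3.70%) against 1.89%, the ERR motif TCAAGGTCA in 2 (2.47%) against 0.433%, and TATAAA in 6 (7.41%) against 14.2%. The windows were not matched for base composition, and a match is a description, not a site. Stretches are shown 5′ to 3′ along the gene, with the motif in capitals, for members of different complexes that hold one of the motifs. Ndufa6 (chr7:115750288-115750347, minus strand), Ndufs7 (chr7:10110469-10110539, minus strand) and Uqcrc1 (chr8:118468177-118468252, plus strand) carry the YY1 letters across or just after the start site, Atp5po (chr11:44657488-44657587, minus strand) and Atp5me (chr14:1464739-1464838, plus strand) carry the NRF1 letters 49 and 66 bases before it, Uqcrq (chr10:38089949-38090045, minus strand) and Cox5b (chr9:46417778-46417866, plus strand) carry the ETS letters 13 and 5 bases before it, and Atp5mc3 (chr3:79220668-79220766, minus strand) carries the ERR letters, in the reverse direction, 48 bases before it. Atp5if1 (chr5:150026678-150026797, minus strand) held none of the 5 motifs in its window and is shown, with no capitals, as the best-covered of the 3 members called higher in the DEN model on both scales.
Ndufa6: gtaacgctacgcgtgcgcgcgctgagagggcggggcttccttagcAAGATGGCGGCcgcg
Ndufs7: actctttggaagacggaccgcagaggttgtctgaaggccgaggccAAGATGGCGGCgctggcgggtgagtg
Uqcrc1: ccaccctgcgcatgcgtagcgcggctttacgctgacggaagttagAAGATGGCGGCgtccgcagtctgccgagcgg
Atp5po: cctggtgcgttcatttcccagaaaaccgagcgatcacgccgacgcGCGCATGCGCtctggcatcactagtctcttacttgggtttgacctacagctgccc
Atp5me: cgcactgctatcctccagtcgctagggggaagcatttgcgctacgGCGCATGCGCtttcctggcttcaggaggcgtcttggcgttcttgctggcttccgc
Uqcrq: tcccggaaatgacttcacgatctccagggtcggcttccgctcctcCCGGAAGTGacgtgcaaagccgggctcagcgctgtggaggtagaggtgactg
Cox5b: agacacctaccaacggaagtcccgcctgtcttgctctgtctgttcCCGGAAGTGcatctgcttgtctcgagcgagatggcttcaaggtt
Atp5mc3: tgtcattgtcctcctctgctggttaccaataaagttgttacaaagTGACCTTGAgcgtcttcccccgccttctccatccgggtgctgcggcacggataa
Atp5if1: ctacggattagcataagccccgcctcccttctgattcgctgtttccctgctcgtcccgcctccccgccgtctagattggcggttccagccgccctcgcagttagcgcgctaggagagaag

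As a share of all reads, the nuclear respiratory chain genes were level across the groups. They took 0.706, 0.664 and 0.745% of the reads in rats N1, N3 and N12, 0.689, 0.762 and 0.744% in M13, M17 and M24, and 0.743, 0.646 and 0.718% in G27, G28 and G42. The means were 0.705 ± 0.040%, 0.732 ± 0.038% and 0.702 ± 0.050% (SD, n = 3 rats each), and the 3 groups overlapped. The mitochondrially encoded share was 7.08 ± 2.97%, 10.2 ± 0.36% and 10.6 ± 2.78% (SD, n = 3), its spread lying in the normal control and PZH administration groups that hold the 3 libraries described above.

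**Figure D1:**
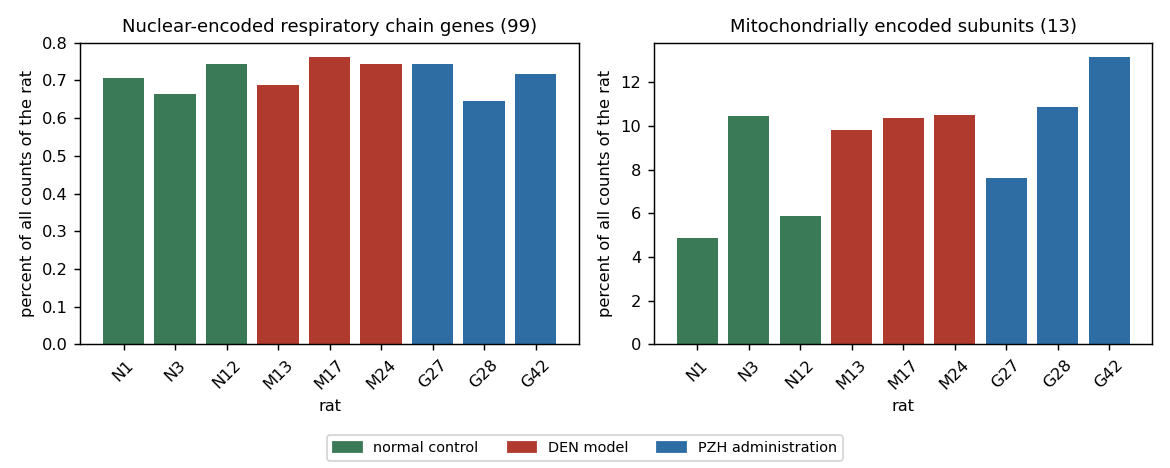
Percent of all counts of each rat (vertical axes, both starting at 0) taken by the 99 nuclear-encoded genes (left) and by the 13 mitochondrially encoded subunits (right), 1 bar per rat, coloured by group. The nuclear share lies between 0.646 and 0.762% in every rat, whereas the mitochondrial share is lowest in N1, N12 and G27.

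Relative to the typical gene, the respiratory chain fell in DEN model liver, whereas on library totals its median did not move. Of 91 members that passed the filter on low counts, 66 were lower and 3 higher in the DEN model than in the normal control group at an adjusted p under 0.05 (edgeR quasi-likelihood test, Benjamini-Hochberg over all 14255 genes tested). Among all genes 45.8% were called, 20.5% lower and 25.3% higher. The members' median log2 fold change was −0.87 (interquartile range −1.03 to −0.60) against 0.03 for all genes, and 86 of the 91 (94.5%) were below 0 against 48.7% of all genes. Every DEN model rat was under every normal control rat for 73 members and above for 3, against 27.4% and 31.4% of all genes (58.8% in either direction). On library totals the median over all genes moved by 0.87 to 0.89, the members' median became −0.02, and 71 of the 91 lay within 0.5 of 0. Only 17 members were then called, 13 higher and 4 lower, where 57% of all genes were called higher and 6.72% lower. The members' direction therefore depended on the scale. With a log2 fold change beyond 1 in either direction required as well, 30 members were called, against 33.4% of all genes. The study's cutoffs, a log fold change beyond 2 with P under 0.001, were read here as log2 and as P before adjustment. In this fit 1 member and 12.3% of all genes passed them. The study itself reported more genes at its cutoffs. Without rat M13, 42 members were called, and without N1 and N12, which leaves a single normal control rat assumed to vary like the others, 23 were called with a median of −0.77.

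**Figure D2:**
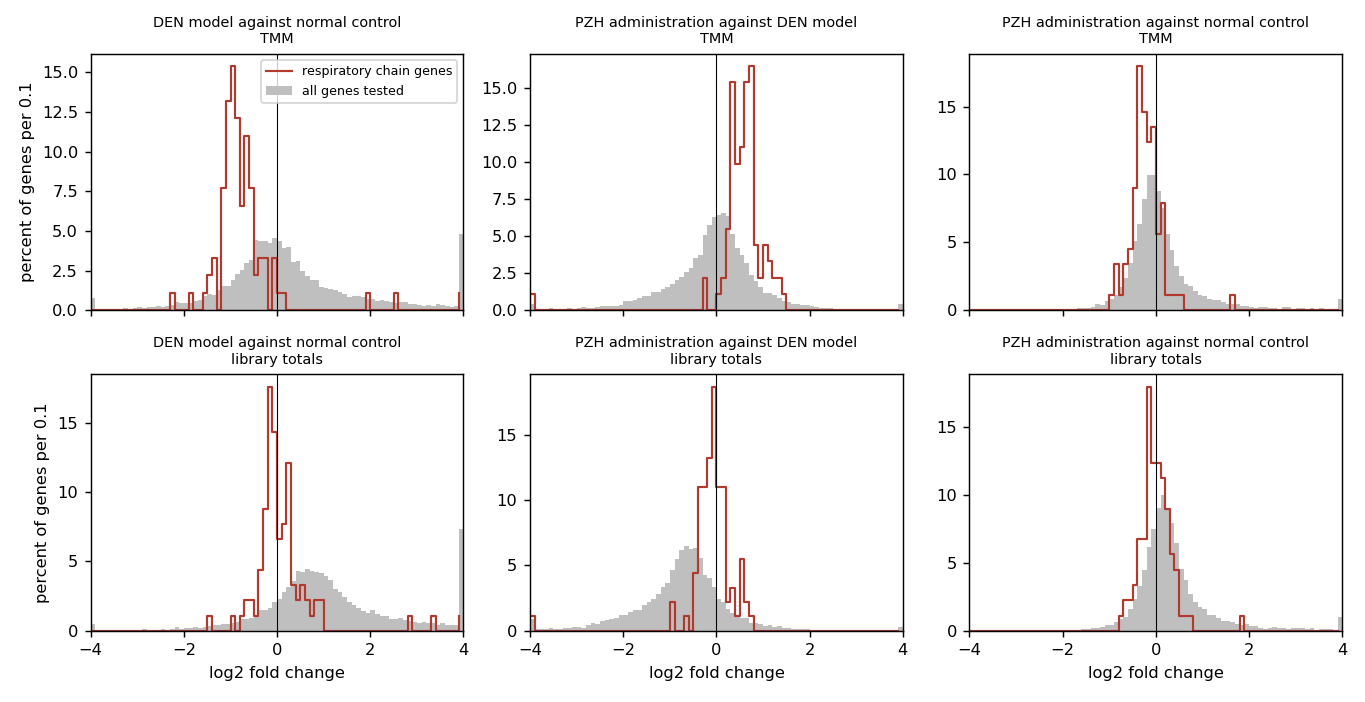
Log2 fold changes (horizontal axis, values past 4 drawn at the edge) in the 3 comparisons, as percent of genes per step of 0.1, for all genes tested (grey) and the respiratory chain genes (red line), with TMM scaling above and library totals below. In the first comparison the members centre on −0.87 above and −0.02 below, while all genes centre on 0.03 and 0.89.

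The fall relative to the typical gene ran through every complex. Of the 37 complex I genes 31 were lower and 1 higher, with a median log2 fold change of −1.002. For complex II 3 of 4 were lower (median −0.92), for complex III 6 of 9 (−0.84), for complex IV 12 of the 13 tested with 1 higher (−0.79), and for the ATP synthase 12 of 16 (−0.73). The higher genes in complexes I and IV were the chromosome 6 copy of Ndufa10l1 and Cox6b2. Both passed the filter on low counts only through the DEN model rats. The intronless Cycs locus, named for the protein that carries electrons from complex III to complex IV, was lower too (−0.80, SE 0.21, adjusted p = 0.013 with edgeR). It lost its call without M24, N1 or M13 (adjusted p 0.056, 0.052 and 0.06). The assembly and regulatory factors moved least, with 1 of 11 lower, 1 higher and a median of −0.49. On library totals the medians ran from −0.16 in complex I to 0.11 in the ATP synthase and 0.39 in the assembly and regulatory factors, so no complex was lower there by more than 0.16.

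**Figure D3:**
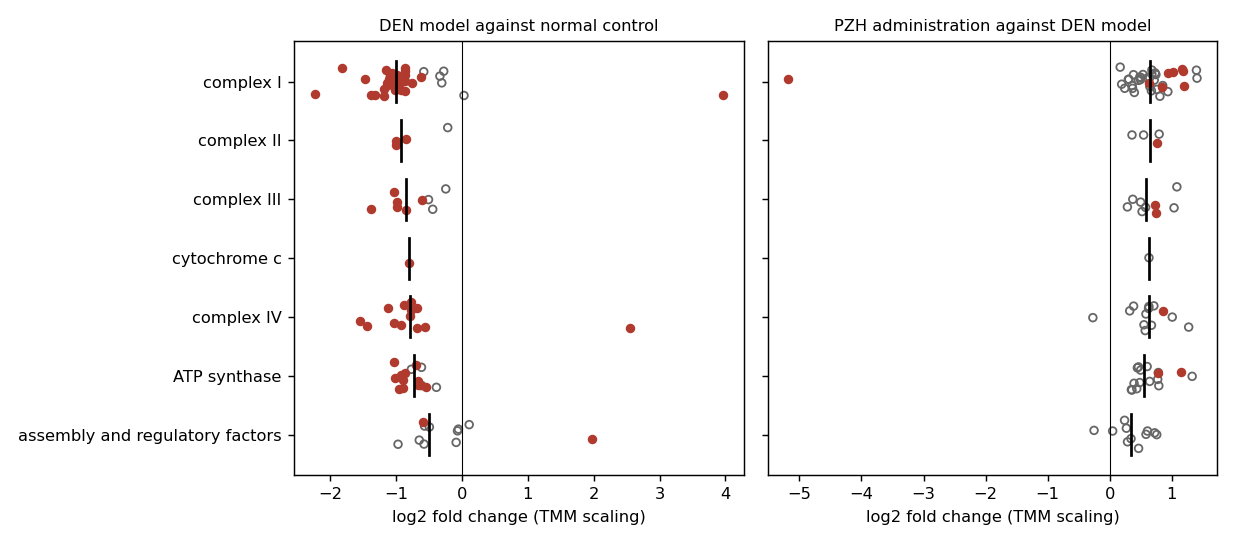
Log2 fold change of each member (TMM scaling, horizontal axis) by complex in the DEN model against normal control rats (left) and the PZH administration against DEN model rats (right). Filled points passed an adjusted p of 0.05, open points did not, and the black bar is the median of the complex, from −1.002 in complex I to −0.49 in the assembly and regulatory factors on the left. The outlying complex I point in each panel is the chromosome 6 copy of Ndufa10l1, whose size rests on counts near 0.

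Subunits of the catalytic cores were not alike. Ndufs7, which carries an iron-sulphur cluster of complex I near the ubiquinone site, had 73.5, 90.5 and 86.8 CPM in normal control rats and 31.6, 43.2 and 36.7 CPM in DEN model rats. The groups did not overlap (log2 fold change −1.15, SE 0.19, adjusted p = 0.0017), although on library totals it was −0.30 (adjusted p = 0.18). Ndufs1, the largest iron-sulphur subunit of the same complex, had 128, 144 and 147 CPM in normal control and 98.7, 140 and 96.5 CPM in DEN model rats, which overlapped. Its log2 fold change was −0.31 (SE 0.21, adjusted p = 0.26), and on library totals it was called higher (0.53, adjusted p = 0.032). The core subunits Ndufs8, Ndufv1 and Ndufv2 were lower by log2 fold changes of −0.98, −1.02 and −1.12 (adjusted p 0.005, 0.0066 and 0.0063 with edgeR) but lost their calls without N1 and N12 (adjusted p 0.061, 0.13 and 0.13), and Ndufs3 did not pass (−0.58, adjusted p = 0.055).

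Complex II, the only complex made of nuclear products alone, showed the same split. Sdha, the flavoprotein that oxidises succinate, Sdhb, its iron-sulphur partner, and the membrane anchor Sdhd were lower by log2 fold changes of −0.999, −0.84 and −0.998 (adjusted p 0.0089, 0.0088 and 0.0058 with edgeR). Without N1 and N12 the calls of Sdha and Sdhb were lost (adjusted p 0.13 and 0.053). The other anchor, Sdhc, had 145, 182 and 172 CPM in normal control and 132, 164 and 130 CPM in DEN model rats. The groups overlapped for Sdhc (−0.22, SE 0.20, adjusted p = 0.41), and on library totals it was called higher (0.64, adjusted p = 0.015). In complex III, the Rieske protein Uqcrfs1 fell by 0.98 on the log2 scale (adjusted p = 0.0054), the core protein Uqcrc1 by 0.61 (adjusted p = 0.037, and 0.16, 0.13, 0.093 and 0.093 without M13, M24, N1 or N12), and the second core protein Uqcrc2 had −0.51 (adjusted p = 0.12). On library totals these 3 had −0.14, 0.23 and 0.36, none of them called. The catalytic ATP synthase subunits Atp5f1b and Atp5f1a did not pass (−0.77 and −0.61, adjusted p 0.056 and 0.088). Atp5f1b had 1437, 1542 and 1483 CPM in normal control and 751, 1094 and 746 CPM in DEN model rats, M17 being the highest of its group, and both genes were called without M17 (adjusted p 0.0081 and 0.012).

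On CPM with TMM scaling, rat M17 was the highest of the 3 DEN model rats for 77 of 94 members with at least 10 counts. M13 was the lowest for 47 and M24 for 40. A smaller TMM factor gives a higher CPM, and the factor was 1.21 in M17 against 1.49 in M13 and 1.58 in M24. This order was counted neither on library totals nor over all genes. The hepatocyte marker sum of M17 was also the highest of its group, at 83402 CPM against 36135 to 49722 in M13 and M24. The part of these marker shifts in the members' levels was not tested.

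Lower on both scales were 4 of the 91 members and 6.72% of all genes. Ndufa6, an accessory subunit at the matrix arm of complex I (chr7:123583062-123586919 in the authors' file), showed the clearest fall of these. It had 1009, 857 and 984 counts in N1, N3 and N12 but 413, 537 and 459 in M13, M17 and M24, or 78.7, 71.9 and 75.03 against 17.5, 26.6 and 19.1 CPM. No DEN model rat came near a normal control rat, and the log2 fold change was −1.82 (SE 0.20, adjusted p = 0.00032) with TMM and −0.98 (adjusted p = 0.0017) on library totals. Without N1 and N12 it was −1.78 (adjusted p = 0.021).

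Cox8a, the usual liver form of a small complex IV subunit, had 115, 55.8 and 106 CPM in normal control and 30.7, 34.3 and 28.2 CPM in DEN model rats. The log2 fold change was −1.55 (SE 0.27, adjusted p = 0.0022), and −0.72 on library totals (adjusted p = 0.047). The normal control value rested on N1 and N12 with 1476 and 1393 counts, since N3 had 666 counts, no more than the 678 to 723 of the DEN model rats. Without N1 and N12 the log2 fold change was −0.85 (adjusted p = 0.04). Uqcrq, a small subunit of complex III named here after its values were seen, had 106, 99.4 and 126 CPM in normal control and 33.9, 54.2 and 37.6 CPM in DEN model rats (−1.38, SE 0.22, adjusted p = 0.0017, and −0.55 with adjusted p = 0.039 on library totals). All 3 normal control rats were above all 3 DEN model rats for both genes. The fourth was the intronless chromosome 13 copy of Ndufv3, with 12.6, 10.3 and 16.2 CPM against 2.29, 4.01 and 1.91 CPM (−2.24, SE 0.34, adjusted p = 0.0013), the only member past the study's cutoffs in this comparison, whereas the chromosome 20 locus of the same name had −0.87.

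3 members were higher in the DEN model on both scales, as were 25.3% of all genes, but 2 of them, Cox6b2 and the chromosome 6 copy of Ndufa10l1, passed the filter on low counts only through the DEN model rats. With at least 10 counts in every rat required, 1 was higher. Atp5if1, the inhibitor that binds the ATP synthase and blocks its reversal when the proton gradient collapses, had 6.71, 3.77 and 7.09 CPM in normal control and 23.2, 22.7 and 22.8 CPM in DEN model rats. The DEN model rats were nearly identical and all above the normal control rats (log2 fold change 1.98, SE 0.25, adjusted p = 0.00063, and 2.83 on library totals). Without N1 and N12 it was 2.59 (adjusted p = 0.013). Of the 16 ATP synthase genes, 0 were called higher with edgeR on either scale, while 12 were lower with TMM and 0 on library totals. At an unadjusted P under 0.05 with TMM 0 of them had a higher level, and DESeq2 called 0 higher.

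The other 2 rest on few reads. Cox6b2, the testis-type form of a complex IV subunit, had 4, 0 and 2 counts in normal control and 11, 21 and 32 in DEN model rats (2.55, SE 0.83, adjusted p = 0.033). It lost its call without M17, M24, N12 or N3 (adjusted p 0.066 to 0.1). The intronless chromosome 6 copy of Ndufa10l1 had 1, 0 and 1 counts against 20, 28 and 13 (adjusted p = 0.0056, and 0.057 without N1 and N12). Its fitted fold depends on counts near 0 and is not given.

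Ratios of isoforms within a library do not depend on the scaling between libraries. Of 4 pairs with more than 3 counts of the rarer form in some rat, 2 had reads of it in a normal control rat, and the size of their differences depends on the 1 count added. For Cox4i2, the oxygen-responsive form, against Cox4i1, the mean log2 ratio was −10.07 in normal control and −7.84 in DEN model rats, a difference of 2.22. For Cox6b2 against Cox6b1 the difference was 3.08. The groups were separate in both pairs, each with p = 0.1 in an exact two-sided permutation test, the smallest p that 3 against 3 rats allow, and an adjusted p of 0.24 over the 12 ratios compared. Ndufa4l2, a hypoxia-induced relative of the complex IV subunit Ndufa4, had no read in any normal control rat and 16, 9 and 13 counts in DEN model rats, at least 2.33-fold higher against a floor of 3 counts per library. Even so, Cox4i2 held only 15, 6 and 21 counts in DEN model rats beside 3083, 3276 and 2949 of Cox4i1. Cox4i1 thus made up nearly all reads of that pair, whereas the mean log2 ratio of Cox6b2 to Cox6b1 in DEN model rats was −4.26.

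**Figure D4:**
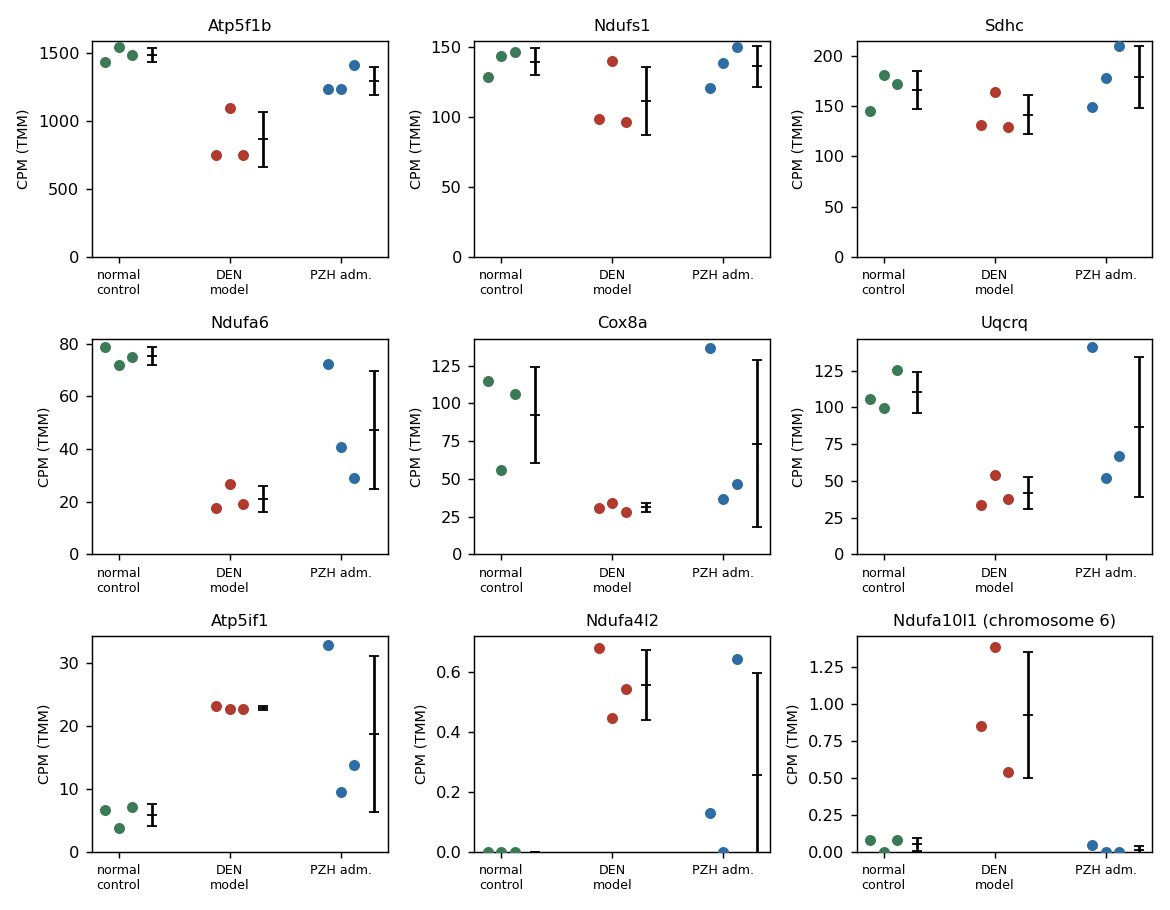
CPM with TMM scaling (vertical axes from 0) of 9 members in each rat (points) with the group mean and SD (black, n = 3). Ndufa6 and Uqcrq lie lower and Atp5if1 higher in all 3 DEN model rats, Sdhc and Ndufs1 overlap between groups, and G27 is the highest PZH administration rat for Ndufa6, Cox8a, Uqcrq and Atp5if1.

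In the PZH administration group the members were higher than in the DEN model group relative to the typical gene, whereas on library totals they were not. The comparison shares its DEN model rats with the one above, so a rise here and a fall there are not independent. Of 91 members 13 were higher and 1 lower (edgeR, adjusted p under 0.05), where 19.1% of all 14272 genes were called, 8.72% higher and 10.3% lower. The median log2 fold change was 0.61 (interquartile range 0.39 to 0.77) against 0.01 for all genes, only 3 members were below 0 against 49.6% of all genes, and 46 members were higher in every PZH administration rat than in every DEN model rat, against 18.4% of all genes (40.9% in either direction). With a change beyond 1 required, 6 were called, against 14.8% of all genes. On library totals the median over all genes moved by −0.67, the members' median became −0.05, and the 2 members called, Cox7a2l and the chromosome 6 copy of Ndufa10l1, were both lower, where 3.9% of all genes were called higher and 39.9% lower. With edgeR 0 members were higher on both scales, as were 3.8% of all genes. The calls depended on single rats. Without M13 edgeR called 0 members, with 15 at an unadjusted P under 0.05, and 1 without M24, 3 without G28, 4 without G42, 10 without G27 and 23 without M17, whereas DESeq2 on all 6 rats called 30.

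The 13 higher members came from all complexes. In complex I they were the accessory subunits Ndufa1, Ndufa6, Ndufb2, Ndufb6, Ndufb9, Ndufb11 and Ndufc1. The others were Sdhd in complex II, Uqcrfs1 and Uqcr10 in complex III, Cox7c in complex IV, and Atp5mc1 and Atp5mg in the ATP synthase. No core subunit of complex I was among them with edgeR, although 3 had an unadjusted P under 0.05 and DESeq2 called 3.

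Ndufa6 had 72.3, 40.7 and 28.9 CPM in G27, G28 and G42, all above the 17.5 to 26.6 CPM of the DEN model rats. Its log2 fold change was 1.201 (SE 0.35, adjusted p = 0.046), but the value of G27 was at the normal control level while G42 was near the DEN model level. Without G27 the change was 0.75 (adjusted p = 0.081), and the call was also lost without G28, M13 or M24 (adjusted p 0.082, 0.16 and 0.14). Ndufc1 had 17.8, 11.0 and 11.6 CPM against 5.52, 7.42 and 5.32 CPM (1.18, SE 0.28, adjusted p = 0.025), and Ndufb6 had 30.4, 49.3 and 60.3 against 14.1, 21.9 and 27.03 CPM (1.17, SE 0.31, adjusted p = 0.036). The PZH administration rats were above the DEN model rats for both, but Ndufc1 lost its call without M13 or M24 (adjusted p 0.1 and 0.089) and Ndufb6 without M13, M17, M24, G28 or G42 (adjusted p 0.059 to 0.12). On library totals none of the 13 was called, Ndufa6 having 0.53 (adjusted p = 0.16), Ndufc1 0.51 (0.13) and Ndufb6 0.51 (0.23).

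Atp5mc1, a further c subunit gene of the ATP synthase, had 88.5, 71.3 and 111 CPM in PZH administration rats against 33.8, 51.2 and 38.5 in DEN model rats and 81.6, 76.5 and 83.9 in normal control rats. The first 2 groups did not overlap (1.15, SE 0.23, adjusted p = 0.017, and 0.51 with adjusted p = 0.094 on library totals). The lower member was the chromosome 6 copy of Ndufa10l1, at 1, 0 and 0 counts against 20, 28 and 13 (adjusted p = 0.014, and 0.054 without M13). It passed the filter only through the DEN model rats, and its fitted fold is not given. It was the only member past the study's cutoffs as read here, against 2.43% of all genes (347) in this fit. The study itself reported many more genes at its cutoffs in this comparison.

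Atp5if1 did not follow the other members. It had 32.8, 9.46 and 13.8 CPM in G27, G28 and G42 beside 22.7 to 23.2 in DEN model rats, so that the groups overlapped (−0.25, SE 0.41, adjusted p = 0.7). Without G27 it was lower than in the DEN model rats (−0.96, adjusted p = 0.034), and without G28 the sign turned (0.08, adjusted p = 0.91).

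**Figure D5:**
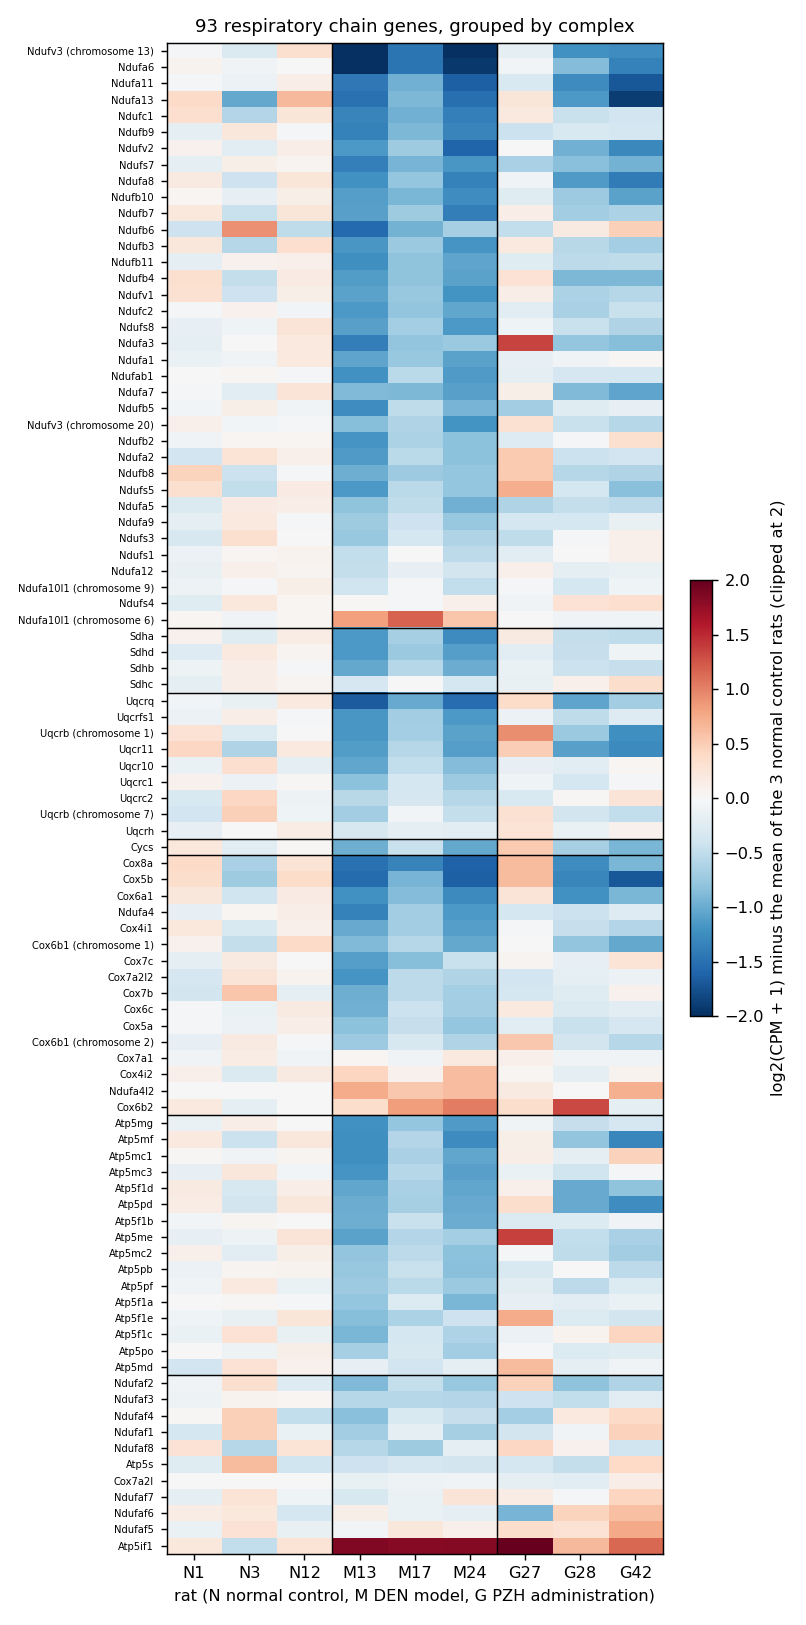
Level of 93 of the 94 members with at least 10 counts in all (rows, grouped by complex) in each rat (columns), as log2(CPM + 1) minus the mean of the 3 normal control rats, drawn from −2 (blue) to 2 (red). Most rows are blue in the 3 DEN model rats, Atp5if1 is red in them, and G27 is closer to the normal control rats than G28 and G42 in rows such as Ndufa6, Cox5b and Cox8a.

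The PZH administration rats themselves differed. G27 was the highest of the 3 on CPM with TMM scaling for 58 of the 94 members, G42 for 32 and G28 for 4. The same count was made neither on library totals nor over all genes. Cox8a had 137 CPM in G27, 36.5 in G28 and 46.4 in G42, and its comparison with the DEN model rats had a log2 fold change of 1.27 (SE 0.47, adjusted p = 0.091). Uqcrq had 141, 52.1 and 67.2 CPM (1.08, SE 0.38, adjusted p = 0.083). For both genes G28 and G42 lay near the highest DEN model value, Uqcrq in G28 being below it, and G27 lay above the normal control range.

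Compared directly with normal control rats, 1 of 89 members was called in the PZH administration group, against 5.21% of all 13348 genes (4.07% higher and 1.15% lower). At an unadjusted P under 0.05 there were 7 members, and DESeq2 called 3. This was Ndufs7, with 52.5, 46.4 and 42.6 CPM in G27, G28 and G42 against 73.5 to 90.5 in normal control rats (−0.82, SE 0.19, adjusted p = 0.041 with edgeR, and −0.59 with adjusted p = 0.091 on library totals). The groups did not overlap, but leaving out any of N1, N3, N12, G28 or G42 ended the call (adjusted p 0.077 to 0.18). The members' median was −0.24 against −0.02 for all genes, and −0.03 on library totals. The groups did not overlap for 17 members that were lower and 2 that were higher, against 10.6% and 13.6% of all genes (24.2% in either direction). With edgeR 0 members passed the study's cutoffs and 0 were called with a change beyond 1, against 2.32% and 4.97% of all genes. Without G27, however, 18 members were called, all lower, with a median of −0.41, among them Ndufa6 (−1.11, adjusted p = 0.015), Cox8a (−1.15, adjusted p = 0.046) and Uqcrq (−0.89, adjusted p = 0.031). The share of all genes called in that fit was not computed. Without G27, N1 and N12, 8 were called with a median of −0.41. Atp5if1 had the highest log2 fold change, 1.69 (SE 0.46, adjusted p = 0.075), and all 3 PZH administration rats were above the normal control rats. It passed on library totals (1.87, adjusted p = 0.041), where it was the 1 member called, against 6.13% of all genes higher and 0.682% lower. Called on both scales were 0 members, against 4.07% of all genes higher and 0.682% lower. A p above the threshold here does not show that the groups were alike.

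The rest of the mitochondrial gene set was read from lists in the same fits. In the DEN model against normal control rats, 0 of the 13 mitochondrially encoded subunits were called with edgeR, 0 had an unadjusted P under 0.05 and DESeq2 called 0, with a median log2 fold change of −0.31 (0.55 on library totals). Their summed level spread over 61467 to 142986 CPM in the normal control rats, and a p above the threshold does not show that they were level. The counts of the other lists are to be read against the 20.5% of all genes called lower and 25.3% called higher. Of 73 mitochondrial ribosomal protein genes 34 were lower (median −0.58), of 36 assembly factors outside the prefixes 13 were lower (−0.44), of 23 membrane and import proteins 7 were lower and 1 higher (−0.35), and of 15 tricarboxylic acid cycle and pyruvate dehydrogenase genes 6 were lower and 1 higher (−0.47). On library totals these 4 medians were 0.27, 0.43, 0.51 and 0.39, all above 0. In the PZH administration against DEN model rats the same lists in order had 5, 2, 1 and 4 members higher, with 1 lower in the third, where 8.72% of all genes were called higher, and medians of 0.37, 0.45, 0.35 and 0.34, again with medians below 0 on library totals, and 1 of the 13 mitochondrially encoded subunits, Mt-nd6, was called with edgeR (1.10, SE 0.29, adjusted p = 0.036). For these 13 subunits 5 were higher at an unadjusted P under 0.05 and DESeq2 called 10 higher, with a median of 0.88 (0.25 on library totals).

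Of 19 regulators of mitochondrial biogenesis 11 were lower in the DEN model, against 20.5% of all genes, with a median of −0.81. On library totals 2 were lower and 5 higher, with a median of 0.05, where 6.72% of all genes were called lower and 57% higher. Among the DNA-binding factors with motifs above, Nrf1 was at 0.06 (adjusted p = 0.83) and Gabpa at −0.01 (adjusted p = 0.97), and both were higher on library totals (0.92 and 0.87). Yy1, named after its values were seen, had 53.1, 52.0 and 51.2 CPM in N1, N3 and N12 and 36.3, 38.1 and 35.6 CPM in M13, M17 and M24, and was lower (−0.49, SE 0.14, adjusted p = 0.021) but at 0.37 on library totals (adjusted p = 0.1). The co-activator Ppargc1a was at −0.97 (adjusted p = 0.087), its relative Ppargc1b fell by 1.70 (adjusted p = 0.0028, 0.051 on library totals and 0.057 without N1 and N12), the receptor Esrra by 0.88 (adjusted p = 0.021, and 0.92 on library totals) and Tfam, which packages mitochondrial DNA, by 0.81 (adjusted p = 0.0032), although Tfam was at 0.05 on library totals. Esrra also lost its call without M13, N1 or N12 (adjusted p 0.08, 0.078 and 0.051), and Ppargc1a passed without N12 (adjusted p = 0.037).

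2 of the 19 regulators were lower on both scales in the DEN model, as were 6.72% of all genes. Polg2, the accessory subunit of the mitochondrial DNA polymerase, had 28.4, 26.5 and 29.0 CPM in N1, N3 and N12, 5.78, 6.78 and 3.41 CPM in M13, M17 and M24, and 19.0, 15.9 and 18.6 CPM in G27, G28 and G42. The 3 groups were separate, with PZH administration rats between the others. The log2 fold change was −2.38 (SE 0.27, adjusted p = 0.00037) in the DEN model against normal control rats and 1.77 (SE 0.28, adjusted p = 0.011) in the PZH administration against DEN model rats. On library totals these were −1.55 and 1.13 (adjusted p 0.00086 and 0.011). With TMM scaling the rise of Polg2 lost its call without M13 (adjusted p = 0.051). Ppara, the receptor that drives fatty acid oxidation genes in liver, had 96.8, 89.8 and 93.1, then 25.6, 50.6 and 25.6, then 79.0, 80.3 and 75.1 CPM. Its groups were separate likewise on CPM (−1.44, adjusted p = 0.0037, and 1.23, adjusted p = 0.024), with −0.63 (adjusted p = 0.033) and 0.61 (adjusted p = 0.057) on library totals. As a share of all reads, however, Ppara overlapped between the normal control and PZH administration rats. The rise of Ppara lost its call without G27, G28, G42, M13 or M24 (adjusted p 0.051 to 0.098), and its fall without N1 and N12 (adjusted p = 0.074).

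Transcript length was compared because the members are short. Among genes under 500 bases the median log2 fold change in the DEN model against normal control rats was −0.18 over 491 genes and −0.87 over the 25 members. Between 500 and 1000 bases it was −0.15 over 1102 genes and −0.95 over 31 members, and between 1000 and 2000 bases −0.08 over 3839 genes and −0.60 over 27 members. The members' median lay below that of all genes, members included, in each of these bands. In the PZH administration against DEN model rats the median under 500 bases was 0.25 over 488 genes and 0.75 over 25 members. Between 500 and 1000 bases it was 0.12 over 1102 genes and 0.61 over 31 members, and from 4000 bases it was −0.08 over 3463 genes. The part of length in the members' changes was not tested.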

How the data were processed

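The authors deposited 1 table with whole-number read counts per gene and rat, not normalized, and FPKM values, which the authors scaled for transcript length and library size. The submitters' processing notes name fastp, HISAT2 2.1.0, StringTie 1.3.3b and edgeR 3.30.3. The deposited fold changes and P-values of the authors' comparisons were not used. Counts were filtered with filterByExpr, scaled with TMM and tested in R 4.3.3 with edgeR 4.0.16 (quasi-likelihood test), with 6 rats per comparison, no covariates and Benjamini-Hochberg adjustment over all genes tested. CPM used TMM factors over all 9 rats. Isoform ratios used counts plus 1. The script was tested on simulated data. Alternatives were library totals, RLE factors, DESeq2 1.42.0, other filters and thresholds, 1 fit over all 9 rats, and leaving out each rat. Shares of all genes called were computed only for edgeR with all 6 rats of a comparison, with TMM or library totals. Counts from RLE factors, DESeq2, other filters, all 9 rats, unadjusted P or left-out rats stand without such a share. Members and lists were chosen with earlier results of these data known. The naming rule covered isoform pairs, core subunits, the 3 highest and 3 lowest called members with groups that do not overlap, members past the study thresholds, the 5 highest mean FPKM, and 6 regulators plus the 2 highest and 2 lowest of a list. Other names were added after values were seen. Floors cover counting error only. 1 member is counted in the totals but not reported singly here.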

Additional observations from a re-analysis of the deposited data

How the results depend on the processing

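No paired analysis was possible because the groups share no replicate numbers. On library totals 17 members were called in the DEN model against normal control rats (median log2 fold change −0.017), 2 in the PZH administration against DEN model rats (median −0.051), and the median was −0.027 in the PZH administration against normal control rats. Among the members and regulators named by the rule or in the text, log2 fold changes that turned sign on library totals were, for the DEN model against normal control, Atp5f1a 0.22, Atp5f1b 0.070, Cox7a2l 0.78, Ndufs1 0.53, Ndufs3 0.28, Sdhb 0.0026, Sdhc 0.64, Uqcrc1 0.23, Uqcrc2 0.36, Cox6b1 (chromosome 2) 0.29, Cox7b 0.11, Cox7c 0.11, Cycs 0.024, Gabpa 0.87, Tfam 0.045, for PZH administration against DEN model, Atp5f1a −0.15, Atp5f1b −0.035, Cox7a2l −0.62, Ndufs1 −0.33, Ndufs3 −0.18, Ndufs7 −0.29, Ndufs8 −0.015, Ndufv2 −0.15, Sdhb −0.11, Sdhc −0.28, Uqcrc1 −0.15, Uqcrc2 −0.13, Cox4i1 −0.037, Cox6a1 −0.0091, Cox6b1 (chromosome 1) −0.35, Cox6b1 (chromosome 2) −0.13, Cox7b −0.067, Cycs −0.042, Nrf1 −0.61, Gabpa −0.51, Esrra −0.29, Tfam −0.17, and for PZH administration against normal control, Atp5f1a 0.069, Atp5f1b 0.035, Atp5mc3 0.057, Cox7a2l 0.16, Ndufb6 0.22, Ndufs1 0.21, Ndufs3 0.10, Uqcrc1 0.083, Uqcrc2 0.23, Cox6b1 (chromosome 2) 0.16, Cox7b 0.041. With a change beyond 1 required, 30, 6 and 0 members were called in the 3 comparisons in that order, and with the study's cutoffs 1, 1 and 0. DESeq2 called 30 in the second and 3 in the third. In the third comparison edgeR called 2 with all 9 rats in 1 fit and 0 with at least 10 counts in every rat (5 at an unadjusted P under 0.05).

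Leaving out 1 rat at a time gave 42 to 72 called members in the first comparison, 0 to 23 in the second and 0 to 18 in the third, where the median ran from −0.41 to −0.14. Ranges that crossed 0 among the same genes were, in the first, Gabpa −0.080 to 0.082, Nrf1 −0.054 to 0.12, in the second, Cox6b1 (chromosome 1) −0.075 to 0.54, Cox6b2 −1.78 to 0.30, Atp5if1 −0.96 to 0.075, Cox7a2l −0.053 to 0.12, Nrf1 −0.028 to 0.13, and in the third, Ndufb6 −0.34 to 0.60, Ndufs1 −0.11 to 0.041, Ndufs3 −0.33 to 0.047, Uqcrc2 −0.19 to 0.24, Cox6b1 (chromosome 2) −0.50 to 0.15, Cox8a −1.15 to 0.01, Sdhc −0.025 to 0.22, Cox7c −0.060 to 0.18, Cycs −0.81 to 0.045, Cox7b −0.42 to 0.14, with the log2 isoform ratios Cox4i2 to Cox4i1 −0.28 to 0.75, Cox6a2 to Cox6a1 −0.20 to 0.90. Leaving out N1 and N12, chosen after seeing the data, gave 23 called in the first and turned Nrf1 to −0.088. Leaving out G27, N1 and N12 gave 8 called in the third with a median of −0.41 and turned the sign of Ndufc1 to 0.21, Ndufs1 to 0.019 and Cox7c to −0.094. The cause was not tested. RLE factors turned no direction. Without a filter only the counts of called members and their medians were computed, and no median turned sign. Members with few reads, such as Cox6b2, Cox4i2 and Ndufa4l2, were limited by depth.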
